A study of Mus musculus with 24 samples.

Results

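The genes described here are 37 cell cycle and DNA replication genes of mouse liver, chosen by symbol and found once each among the 53677 gene identifiers of the count matrix. They comprise 15 replication genes (11 of origin licensing and the replication fork, 4 of nucleotide supply), 18 mitosis genes (9 kinases and cyclins, 9 of chromosome and spindle structure) and 4 regulators of G1 and S phase. RNA was sequenced from the livers of 24 mice, 1 library per mouse, of 2 inbred strains. There were 6 mice in the 129S1/SvImJ high-fat diet group, 5 in the 129S1/SvImJ chow group, 7 in the C57BL/6J high-fat diet group and 6 in the C57BL/6J chow group. No allele, agent or treatment other than strain and diet is named in the labels, and neither age, nor what the diets held, nor how long they were fed is given there. The series concerns the binding of the transcription factor TCF7L2 and open chromatin in the livers of both strains.

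A cell that enters the cycle first loads the MCM helicase, a ring of the subunits Mcm2 to Mcm7, onto replication origins with the help of Cdc6 and Cdt1. The ring is activated at the start of S phase together with Cdc45 and the GINS complex, and thymidylate synthase, thymidine kinase and ribonucleotide reductase supply the nucleotides. Many of the replication genes are switched on by E2F factors around the G1 to S boundary. Genes of mitosis are switched on later, through promoters that carry a cell cycle homology region (CHR) and CCAAT boxes, which bind the MuvB complex and the factor NF-Y. Most hepatocytes of an adult liver are quiescent and return to the cycle after loss of tissue or injury, whereas resident and recruited blood cells, endothelial cells and stellate cells can also divide there.

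Total counts ran from 6707013 to 13124881 per library, and levels are CPM on library sizes that edgeR had scaled. All 8 hepatocyte markers passed the count filter, and their summed level ran from 74953 to 110806 CPM over all livers, with no library at 0. Of the 37 genes, 29 passed the filter on low counts: 14 of 15 replication genes (not Cdc6), 11 of 18 mitosis genes (not Ccnb1, Ccnb2, Plk1, Aurka, Aurkb, Bub1 and Nusap1) and 4 of 4 regulators. The filter asked for at least 0.925 CPM in 5 or more libraries, and 5 of the 11 mitosis genes (Cdk1, Ccna2, Bub1b, Cenpe and Prc1) met it only through C57BL/6J livers on high-fat diet. For the fits over all 24 libraries, values over the mitosis genes that passed are therefore given beside those over all 18 genes with no filter. In fits that leave out libraries, sets are counted only over genes that passed, so this limit remains there. A difference was called when its adjusted p was under 0.05 in edgeR's quasi-likelihood test, adjusted by Benjamini-Hochberg over the 14533 genes tested.

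Among the C57BL/6J livers on high-fat diet, replicates 2 and 5 stood apart from the other 5 of their group. They held the highest pair of values for 29 of the 37 genes: 10 of 15 replication genes, 16 of 18 mitosis genes and 3 of 4 regulators. The summed level of the 18 mitosis genes was 76.3 and 85.5 CPM in replicates 2 and 5, and 20.7 to 35.6 CPM in the other 5 livers on that diet. In the same pair the stellate cell and fibroblast markers summed to 912 and 1129 CPM, against 395 to 757 CPM in the other 5. Kupffer cell markers summed to 611 and 332 CPM, against 243 to 320 CPM, and markers of recruited monocytes, macrophages and neutrophils to 400 and 355 CPM, against 159 to 245 CPM. Replicate 5 also held the fat cell transcripts Adipoq, Lep and Plin1 at 6.07 CPM in all. All 9 fat cell markers, however, summed to 371 and 360 CPM in the pair, within the 106 to 454 CPM of the other 5. Lymphocyte markers summed to 69.3 and 40.6 CPM, against 26.9 to 43.6 CPM, and endothelial markers to 605 and 636 CPM, against 504 to 597 CPM. Cholangiocyte markers summed to 152 and 274 CPM, against 106 to 170 CPM, and erythroid markers to 148 and 123 CPM, against 140 to 176 CPM. For hepatocyte markers the sums were 80876 and 74953 CPM, against 77034 to 91031 CPM. The part of these cells in the values below was not tested, and in RNA from whole liver more cells of a type and more RNA per cell cannot be told apart. Results that include C57BL/6J livers on high-fat diet are therefore also given without this pair, a choice made after seeing the values.

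Promoters are shown first because replication and mitosis genes are known to be controlled through different promoter elements. A RefSeq window of 250 bases before to 50 after the transcription start (GRCm38.p6, which is C57BL/6J sequence) was at hand for 30 of the 37 genes. It was searched on both strands for E2F letters (TTTCCCGC, TTTCGCGC, TTTGCCGC or TTTGGCGC), for the CHR letters TTTGAA and for CCAAT. E2F letters occurred in 6 of 13 replication genes (46.2%), 1 of 15 mitosis genes (6.67%) and 2.32% of all 27025 promoters. CHR letters together with CCAAT occurred in 2 of 13 replication genes (15.4%), 10 of 15 mitosis genes (66.7%) and 7.12% of all promoters. Windows of the regulators Ccne1 and Cdkn1a held none of these letters, and neither did those of Tk1, Tyms, Birc5 and Nusap1. Mcm2 and Cdc45, the 2 replication genes with CHR letters and CCAAT, held no E2F letters. The bases up to 30 after the start are printed for 3 helicase subunits and 4 mitosis genes, with matches on either strand in capitals. All of these hold matches, unlike the genes named above without any. Neighbouring E2F matches share letters in Mcm5 and Mcm6.
Mcm3, chr1:20820283-20820562, minus strand: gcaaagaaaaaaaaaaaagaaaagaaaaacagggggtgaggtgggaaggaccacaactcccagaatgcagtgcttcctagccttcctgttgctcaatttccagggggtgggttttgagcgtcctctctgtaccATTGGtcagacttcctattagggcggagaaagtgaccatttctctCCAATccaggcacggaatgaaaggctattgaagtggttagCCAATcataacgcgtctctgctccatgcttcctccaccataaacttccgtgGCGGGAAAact
Mcm5, chr8:75109259-75109538, plus strand: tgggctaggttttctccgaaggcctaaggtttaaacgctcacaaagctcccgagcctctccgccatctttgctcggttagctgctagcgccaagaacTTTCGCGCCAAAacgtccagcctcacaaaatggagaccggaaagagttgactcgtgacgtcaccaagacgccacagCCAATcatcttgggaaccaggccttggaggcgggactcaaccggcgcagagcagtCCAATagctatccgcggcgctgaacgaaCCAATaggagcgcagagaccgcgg
Mcm6, chr1:128359676-128359955, minus strand: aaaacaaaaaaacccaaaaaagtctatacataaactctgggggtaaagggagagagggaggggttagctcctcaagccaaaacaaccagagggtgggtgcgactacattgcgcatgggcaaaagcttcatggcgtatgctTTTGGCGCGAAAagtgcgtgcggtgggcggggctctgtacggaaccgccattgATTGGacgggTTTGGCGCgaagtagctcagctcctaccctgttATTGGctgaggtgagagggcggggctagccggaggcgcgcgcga
Cdk1, chr10:69352883-69353162, minus strand: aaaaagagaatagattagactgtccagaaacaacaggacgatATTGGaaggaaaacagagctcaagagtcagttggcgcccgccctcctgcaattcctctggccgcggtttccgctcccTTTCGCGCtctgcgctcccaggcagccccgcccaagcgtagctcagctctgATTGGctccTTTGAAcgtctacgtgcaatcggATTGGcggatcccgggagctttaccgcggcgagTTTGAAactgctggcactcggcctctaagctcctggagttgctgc
Top2a, chr11:99024160-99024439, minus strand: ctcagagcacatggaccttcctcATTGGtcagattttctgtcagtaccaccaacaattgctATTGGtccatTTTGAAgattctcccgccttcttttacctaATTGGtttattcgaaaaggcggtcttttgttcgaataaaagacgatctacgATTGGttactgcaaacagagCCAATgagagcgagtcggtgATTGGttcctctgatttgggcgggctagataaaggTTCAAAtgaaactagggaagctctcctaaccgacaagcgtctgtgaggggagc
Mki67, chr7:135716350-135716629, minus strand: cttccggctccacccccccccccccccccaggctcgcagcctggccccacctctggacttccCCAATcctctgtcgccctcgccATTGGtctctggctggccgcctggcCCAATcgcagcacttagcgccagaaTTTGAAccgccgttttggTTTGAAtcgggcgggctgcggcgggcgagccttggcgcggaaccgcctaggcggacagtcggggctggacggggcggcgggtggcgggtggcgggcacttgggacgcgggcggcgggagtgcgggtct
Prc1, chr7:80294201-80294480, plus strand: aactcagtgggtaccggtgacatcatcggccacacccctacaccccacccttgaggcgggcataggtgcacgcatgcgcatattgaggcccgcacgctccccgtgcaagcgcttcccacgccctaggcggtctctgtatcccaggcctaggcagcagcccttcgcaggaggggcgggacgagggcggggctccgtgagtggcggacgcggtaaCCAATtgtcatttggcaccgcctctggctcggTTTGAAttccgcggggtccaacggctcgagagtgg
Mcm3, Mcm5 and Mcm6 carry E2F letters and CCAAT but no CHR letters. Mki67, Top2a and Prc1 carry CHR letters and CCAAT but no E2F letters, and Cdk1, the kinase that drives entry into mitosis, carries all of them. A match describes the reference letters only.

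Transcript levels were low, as the per-length values show. The highest mean levels over all 24 livers were those of the G1 cyclin gene Ccnd1 (6.72 CPM per kilobase of exon), the sliding clamp gene Pcna (5.95) and the thymidine kinase gene Tk1 (5.69 CPM per kilobase). The order differed by strain: Ccnd1 averaged 2.89 CPM per kilobase on high-fat diet and 2.38 on chow in 129S1/SvImJ, and 10.1 on high-fat diet and 10.3 on chow in C57BL/6J. In both 129S1/SvImJ groups Pcna and Tk1 were above it. At the other end, the licensing factor Cdc6 and the checkpoint kinase Bub1 were at 0.054 and 0.0538 CPM per kilobase, with 76 and 63 counts over all livers. The genes below the count filter were therefore measured with few counts, and a difference in them was often not detectable at this depth.

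**Figure D1:**
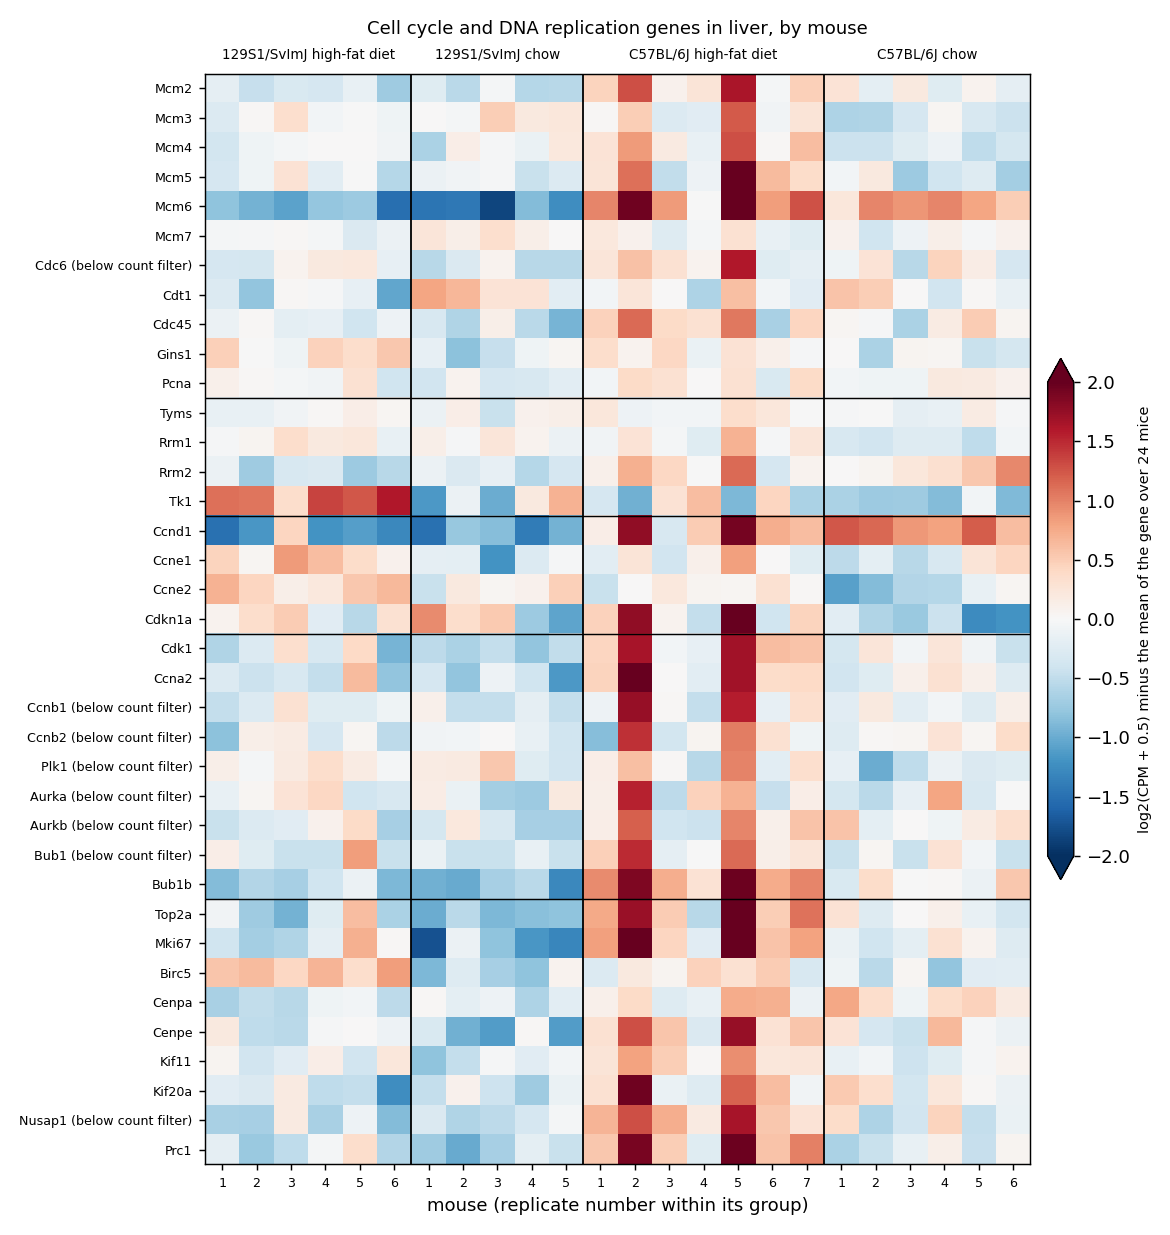
Level of each of the 37 genes in each of the 24 livers, as log2(CPM + 0.5) minus the mean of the gene over all livers; rows are genes in the order origin licensing and fork, nucleotide supply, regulators, mitotic kinases and cyclins, and chromosome and spindle structure, and columns are mice by group. C57BL/6J high-fat replicates 2 and 5 are dark red for most genes, while Mcm6 and Ccnd1 are blue in most 129S1/SvImJ livers.

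In C57BL/6J, 13 of the 29 genes tested rose on high-fat diet and 0 fell, where 14.9% of all genes tested were called (7.66% higher, 7.2% lower). The median log2 fold change, high-fat diet minus chow, was 0.70 over the 29 genes and 0.0070 over all genes tested. Without the count filter, 12 of all 37 genes rose and 33 lay above 0 (median 0.71), where 5.49% of all genes were called. None of the 29 had groups without overlap, which 3.89% of all genes had. Without replicates 2 and 5, 3 of the 13 were called (Mcm4, Bub1b and Prc1). Of all 29 genes 22 then lay above 0, with a median of 0.37. All 13 kept a positive sign, which is no independent support, since they were picked as risen with the same remaining livers. With 9.26% of all genes called in that fit, 3 of 29 is close to the share over all genes.

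Among the replication genes 5 of 14 tested rose, 4 of them helicase subunits. Mcm4 was at 5.01 CPM in the lowest, 6.92 in the median and 14.5 CPM in the highest C57BL/6J liver on high-fat diet, against 3.81, 4.18 and 5.21 CPM on chow. Its groups overlapped only in that the lowest high-fat liver, replicate 4, lay under the highest chow liver. The log2 fold change was 0.93 ± 0.19 (SE, adjusted p = 0.00177, edgeR) and 0.60 (adjusted p = 0.0131) without replicates 2 and 5. Mcm5 ranged over 1.52, 3.17 and 10.8 CPM (lowest, median, highest) on high-fat diet, against 1.21, 1.76 and 2.75 CPM on chow, with replicate 5 highest. Its log2 fold change of 1.24 ± 0.33 (adjusted p = 0.0120) became 0.58 (adjusted p = 0.133) without the pair. Mcm2 was at 3.79, 5.51 and 13.1 CPM on high-fat diet, against 3.23, 3.75 and 4.83 CPM on chow (log2 fold change 0.79 ± 0.23, adjusted p = 0.0209). For Mcm3 the values were 4.57, 5.73 and 13.9 CPM on high-fat diet, against 3.47, 4.20 and 5.79 CPM on chow (0.72 ± 0.21, adjusted p = 0.0195). In both genes replicates 2 and 5 were above every other liver, and without them the values were 0.30 and 0.35 (adjusted p = 0.264 and 0.168). The call of Mcm2 also ended when replicate 2 or 5 alone was left out, and that of Mcm3 without replicate 5.

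The remaining pair of helicase subunits did not pass the test in C57BL/6J. Mcm6 had a log2 fold change of 0.70 ± 0.29 (adjusted p = 0.103). Mcm7, which overlaps the genes Ap4m1 and Cops6 on the other strand, was level at 0.03 ± 0.10 (adjusted p = 0.883). Mcm7 was at 10.6, 12.2 and 15.7 CPM on high-fat diet, against 9.53, 13.0 and 13.7 CPM on chow.

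Of the nucleotide supply genes, Rrm1, the large subunit of ribonucleotide reductase, was called: 10.9, 12.7 and 21.3 CPM on high-fat diet, against 9.01, 10.5 and 12.4 CPM on chow. The log2 fold change was 0.46 ± 0.12 (adjusted p = 0.0126), and 0.28 (adjusted p = 0.0997) without replicates 2 and 5. The small subunit gene Rrm2 (-0.02 ± 0.20, adjusted p = 0.961), the thymidylate synthase gene Tyms (0.14 ± 0.11, adjusted p = 0.444) and Tk1 (0.53 ± 0.31, adjusted p = 0.280) were not. Without replicates 2 and 5 they were at -0.36, 0.11 and 0.77, again with no call. For Tk1, replicates 2 and 5 held the lowest values of the group, 12.4 and 13.0 CPM, against 15.7 to 38.4 CPM in the other 5 livers. Cdt1, Cdc45, Gins1 and Pcna, which license origins, unwind DNA and hold the polymerase, had log2 fold changes of -0.11, 0.63, 0.43 and 0.13 and no call. Without replicates 2 and 5 these were -0.35, 0.26, 0.42 and 0.05, again with no call.

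**Figure D2:**
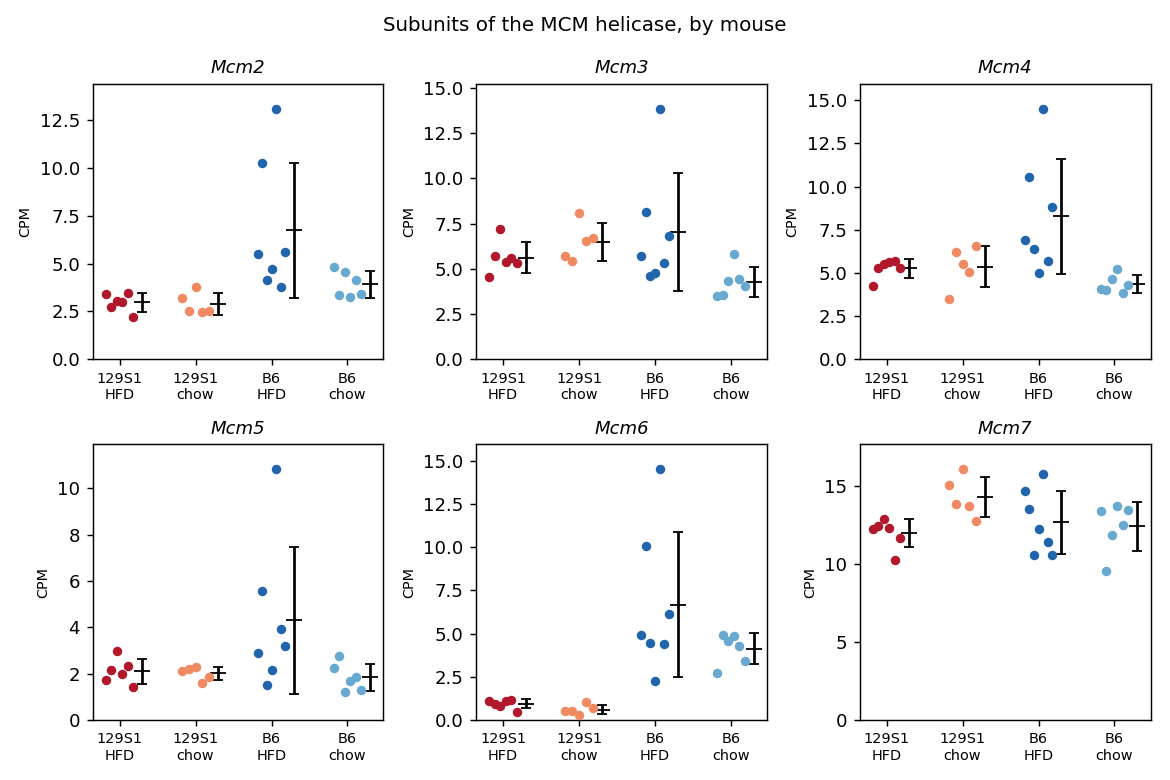
CPM of the helicase subunits Mcm2 to Mcm7 in each liver by group (129S1, 129S1/SvImJ; B6, C57BL/6J; HFD, high-fat diet), with the mean and SD in black beside the points. Both high points of C57BL/6J on high-fat diet in Mcm2 to Mcm6 are replicates 2 and 5, and for Mcm6 every 129S1/SvImJ liver lies below every C57BL/6J liver.

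Of the mitosis genes 7 of 11 tested rose in C57BL/6J on high-fat diet, and 6 of all 18 with no count filter, where the median log2 fold change was 1.27, beside 0.52 for all 15 replication genes. Without replicates 2 and 5 the medians over the tested genes were 0.53 for mitosis and 0.27 for replication genes, with 2 and 1 called. Both mitosis genes called, Bub1b and Prc1, are among the 5 that met the filter only through this group. The difference between the sets was not tested. Mki67, whose product coats mitotic chromosomes and marks cycling cells, was at 3.04, 6.72 and 21.8 CPM (lowest, median, highest) on high-fat diet, against 2.65, 3.21 and 4.63 CPM on chow. Replicates 2 and 5 were at 17.0 and 21.8 CPM, above all others, and replicate 4 was within the chow range. The log2 fold change was 1.46 ± 0.39 (adjusted p = 0.0139) with the pair and 0.67 (adjusted p = 0.139) without it. Prc1, which bundles microtubules of the central spindle, was at 0.536, 1.30 and 4.26 CPM on high-fat diet, against 0.290, 0.50 and 0.828 CPM on chow. Its log2 fold change of 1.91 ± 0.42 (adjusted p = 0.00290) was 1.19 (adjusted p = 0.0375) without the pair. Bub1b encodes the checkpoint protein BUBR1 and was at 0.984, 1.86 and 4.26 CPM on high-fat diet, against 0.483, 0.726 and 1.27 CPM on chow. The groups overlapped through replicate 4 alone, and the log2 fold change was 1.47 ± 0.34 (adjusted p = 0.00402), or 0.93 (adjusted p = 0.0486) without the pair.

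The other 4 mitosis genes called in C57BL/6J were Cdk1, Ccna2, Top2a and Kif11. Top2a, which encodes the topoisomerase that untangles sister chromatids, was at 1.34, 4.09 and 13.7 CPM on high-fat diet, against 1.61, 2.08 and 2.80 CPM on chow (log2 fold change 1.41 ± 0.37, adjusted p = 0.0119). Cdk1 was at 0.626, 1.36 and 3.53 CPM, against 0.423, 0.703 and 0.993 CPM on chow (1.28 ± 0.39, adjusted p = 0.0264). Its partner cyclin A2, Ccna2, was at 0.715, 1.36 and 5.38 CPM, against 0.579, 0.849 and 1.24 CPM on chow (1.29 ± 0.42, adjusted p = 0.0400). In each of these, replicates 2 and 5 were the highest livers and replicate 4 the lowest on that diet. Kif11, the motor that pushes spindle poles apart, was at 1.70, 2.08 and 3.61 CPM on high-fat diet, against 1.11, 1.51 and 1.78 CPM on chow (0.73 ± 0.21, adjusted p = 0.0186). Without the pair all 4 lost their call, at log2 fold changes of 0.72 (Top2a), 0.57 (Cdk1), 0.39 (Ccna2) and 0.48 (Kif11) and adjusted p of 0.126 to 0.544. The calls of Cdk1 and Ccna2 also ended in 4 and 7 of the 24 fits that left out 1 library, chow livers among them. Birc5 (survivin), Cenpe and Kif20a had log2 fold changes of 0.59, 0.99 and 0.76 without a call, and Cenpa, the centromeric histone, of -0.12. Without the pair these were 0.53, 0.37, -0.03 and -0.29, again without a call.

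Of the regulators, Cdkn1a, which encodes the CDK inhibitor p21 and is a target of p53, rose in C57BL/6J. It was at 1.43, 3.17 and 10.6 CPM on high-fat diet, against 0.621, 1.19 and 1.83 CPM on chow. Replicates 2 and 5 were at 8.73 and 10.6 CPM, and replicates 4 and 6 were within the chow range. The log2 fold change was 1.94 ± 0.48 (adjusted p = 0.00837), and 1.03 (adjusted p = 0.0843) without the pair. The G1 cyclins Ccnd1 (-0.03), Ccne1 (0.25) and Ccne2 (0.64) were not called, Ccne2 at an adjusted p of 0.0502. Without the pair they were at -0.63, -0.06 and 0.64, again with no call. Ccnd1 spread widely on high-fat diet, at 82.7 and 92.0 CPM in replicates 2 and 5 and 19.0 to 40.0 CPM in the other 5, against 37 to 57.5 CPM on chow. Its high pair lay above every chow liver, and 3 of the other 5 lay below every chow liver.

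Other genes of the same pathways were called in smaller shares. Of 64 genes of a further mitosis list 40 passed the count filter, and of 50 further replication genes 41 did. How many passed only through C57BL/6J livers on high-fat diet was not counted, so the shares below hold for the genes that passed. Among the 40 mitosis genes 12 rose and 0 fell in C57BL/6J on high-fat diet, with a median of 0.53. Among the 41 replication genes 4 rose and 1 fell, with a median of 0.15. These are 30% and 12.2% of the tested genes of each list, where 14.9% of all genes tested were called. The replication list was thus not called more often than genes at large. Cdca8, a subunit of the chromosomal passenger complex, had a log2 fold change of 1.71 ± 0.33 (adjusted p = 0.000944), and Smc2, a condensin subunit, of 0.88 ± 0.17 (adjusted p = 0.00105). Chaf1a, a histone chaperone at the fork, reached 1.35 ± 0.34 (adjusted p = 0.00907), and Pole, the leading-strand polymerase, 0.66 ± 0.19 (adjusted p = 0.0205). Rnaseh2a, a ribonuclease that removes RNA from DNA, fell by 0.32 on the log2 scale (adjusted p = 0.0256). Of 33 tested cell cycle transcription factors and CDK regulators 3 rose and 1 fell (12.1%, again below the share over all genes), with E2f1 among those that rose, at 0.57 ± 0.17 (adjusted p = 0.0232). Of 25 tested p53 targets other than Cdkn1a 6 rose and 1 fell, with Fas, a death receptor, at 0.59 ± 0.10 (adjusted p = 0.000277) and Ccng1, cyclin G1, at 0.49 ± 0.11 (adjusted p = 0.00268). Without replicates 2 and 5, 9.26% of all genes were called (4.7% higher, 4.56% lower). In that fit 4 of the 36 further mitosis genes still tested rose and 0 of 40 further replication genes were called. Of the transcription factors and CDK regulators 0 of 33 rose and 1 fell, and of the p53 targets 4 of 24 rose and 1 fell. Cdca8 (1.5, adjusted p = 0.00695), Smc2 (0.65, adjusted p = 0.0103), Fas (0.55, adjusted p = 0.00232) and Ccng1 (0.35, adjusted p = 0.0237) kept their calls, and Chaf1a (0.74, adjusted p = 0.0935), Pole (0.39, adjusted p = 0.170), Rnaseh2a (-0.29, adjusted p = 0.0913) and E2f1 (0.51, adjusted p = 0.0834) did not.

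Marker genes of other cell types moved with diet in C57BL/6J to differing degrees, where 14.9% of all genes tested were called. Of 8 hepatocyte markers 5 fell, 3 of 8 stellate cell and fibroblast markers rose (Col1a1, Col3a1 and Col1a2), and all 5 tested fat cell markers rose, among them the lipid droplet genes Cidea and Cidec. None of the 10 Kupffer cell, 6 recruited myeloid, 6 lymphocyte, 4 erythroid, 8 endothelial or 7 cholangiocyte markers tested was called. Stellate cell and fibroblast markers summed to 395 to 1129 CPM on high-fat diet, against 406 to 606 CPM on chow. Recruited myeloid markers summed to 159 to 400 CPM, against 135 to 214 CPM on chow. Without that pair 5 of 8 hepatocyte markers fell, all 4 tested fat cell markers rose, and 0 of 8 stellate cell and fibroblast markers were called. In that fit 9.26% of all genes were called.

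In 129S1/SvImJ, 4 of the 29 genes rose on high-fat diet (Gins1, Tk1, Ccne1 and Birc5) and 1 fell (Cdt1), where 10.4% of all genes tested were called (5.41% higher, 5.01% lower). The median log2 fold change over the 29 was 0.28, with 0.06 for replication and 0.78 for mitosis genes, and it was -0.0040 over all genes tested. With no count filter the medians were 0.08 for all 15 replication and 0.67 for all 18 mitosis genes. Only Birc5 kept its call whichever single library was left out. Birc5 encodes survivin, a subunit of the passenger complex that also binds caspases. It was at 1.86, 2.32 and 2.80 CPM (lowest, median, highest) on high-fat diet, against 0.495, 0.562, 0.675, 1.05 and 1.44 CPM in the 5 livers on chow. The groups did not overlap, as for 7.73% of all genes tested, and the log2 fold change was 1.42 ± 0.28 (adjusted p = 0.00157).

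Tk1 had the highest mean level per kilobase of these genes in this group, at 10.8 CPM per kilobase. The 6 129S1/SvImJ livers on high-fat diet ran over 31.6, 56.2 and 75.7 CPM (lowest, median, highest), against 10.9, 12.1, 22.7, 28.4 and 40.3 CPM in the 5 on chow. The lowest high-fat liver, replicate 3, was below the highest chow liver, and the others were above it. The log2 fold change was 1.29 ± 0.34 (adjusted p = 0.0178), and without 129S1/SvImJ chow replicate 1 the adjusted p was 0.0574. Tk1 overlaps Afmid on the opposite strand. Afmid was at 49.0 ± 9.86 CPM on high-fat diet and 38.5 ± 5.09 CPM on chow (SD, n = 6 and 5), with no call (log2 fold change 0.34, adjusted p = 0.327). The strand setting of the counting is not given, so how reads were shared between Tk1 and Afmid is not known.

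The other calls in 129S1/SvImJ lay near the threshold. Gins1, a GINS subunit, was at 2.25, 3.34 and 3.74 CPM on high-fat diet, against 1.15, 1.62, 2.10, 2.25 and 2.49 CPM on chow (log2 fold change 0.68 ± 0.21, adjusted p = 0.0403). Ccne1, cyclin E1, was at 1.93, 2.65 and 3.78 CPM, against 0.540, 1.46, 1.57, 1.61 and 1.84 CPM on chow, without overlap (0.94 ± 0.30, adjusted p = 0.0468). Cdt1 went the other way, with 1.56, 3.13 and 3.78 CPM on high-fat diet, against 3.15, 4.59, 4.61, 6.18 and 6.80 CPM on chow (-0.80 ± 0.25, adjusted p = 0.0403). These 3 calls ended in 7, 13 and 8 of the 24 fits that left out 1 library. The helicase subunits, apart from Mcm6 at 0.66 ± 0.52, ranged from -0.25 (Mcm7) to 0.08 (Mcm5) in this strain, with no call.

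Mki67, Top2a, Bub1b and Prc1 had positive log2 fold changes in 129S1/SvImJ too, of 0.94 ± 0.51, 0.78 ± 0.51, 0.94 ± 0.68 and 0.78 ± 0.64, none of them called. Mki67 was at 2.09, 2.90 and 6.29 CPM on high-fat diet, against 0.742, 1.18, 1.35, 1.89 and 3.35 CPM on chow. The highest of these livers, replicate 5 on high-fat diet, also had the highest sums of its group for the markers of Kupffer cells (303 CPM), recruited myeloid cells (186 CPM) and lymphocytes (41.8 CPM). Over the whole group, all 10 Kupffer cell markers had values above 0 for diet in 129S1/SvImJ (median 0.70), of which C1qa was called. That is 10% of the list, near the 10.4% over all genes tested. Of 6 recruited myeloid markers Ccl6 and Mpeg1 rose (median 0.82). Kupffer cell markers summed to 131 to 303 CPM on high-fat diet and 85.3 to 227 CPM on chow, and recruited myeloid markers to 73.2 to 186 CPM on high-fat diet and 58.7 to 85.1 CPM on chow. The part of these cells in the values of the mitosis genes was not tested. Cdkn1a stood at -0.10 ± 0.51 (adjusted p = 0.933).

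Among the further mitosis genes 2 of 40 rose in 129S1/SvImJ: Spc25 and Spc24, subunits of the outer kinetochore, at 1.56 ± 0.42 and 0.63 ± 0.17 (adjusted p = 0.0165 and 0.0163). This is 5% of the list, below the 10.4% over all genes tested. Of 41 further replication genes 4 rose and 1 fell (12.2%, near the share over all genes). Pold2, a subunit of the lagging-strand polymerase, fell by 0.64 on the log2 scale (adjusted p = 0.00763).

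The diet effects of the strains were compared directly by the interaction (129S1/SvImJ diet effect minus C57BL/6J diet effect). None of the 29 genes was called by edgeR's quasi-likelihood test, where 0.296% of all genes tested were (0.172% higher, 0.124% lower); 6 had an unadjusted p under 0.05, and DESeq2 called 0. The largest difference was that of Cdkn1a, at -2.04 ± 0.70 (adjusted p = 0.174). The median over the 29 genes was -0.36, and 0.07 without C57BL/6J replicates 2 and 5. A diet effect called in C57BL/6J and not in 129S1/SvImJ was therefore not shown to differ between the strains for any of them.

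**Figure D3:**
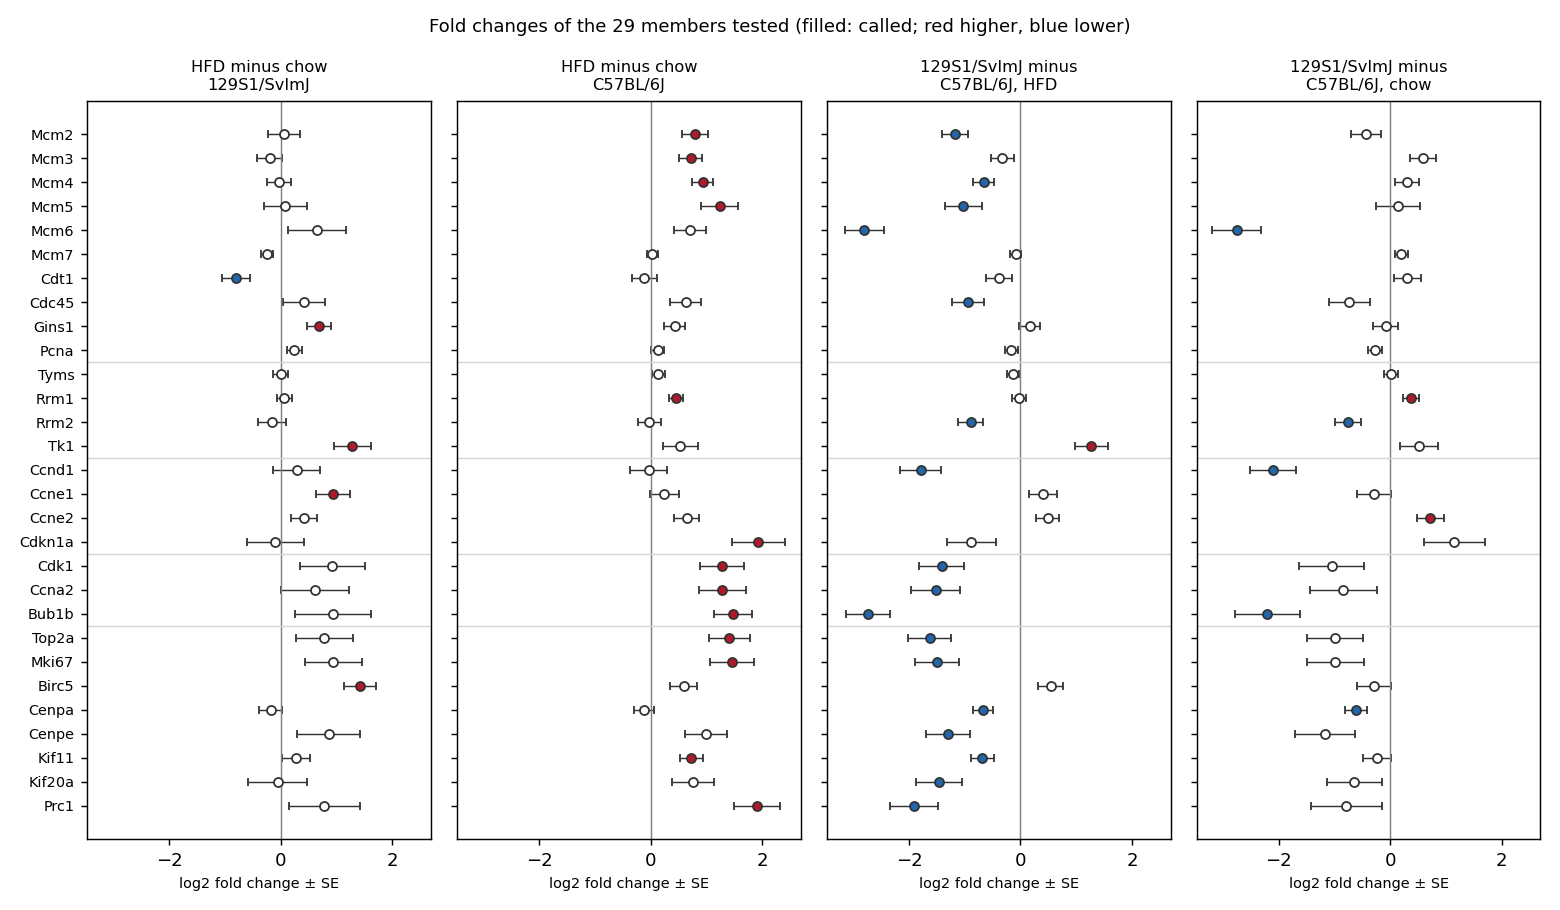
Log2 fold changes with SE of the 29 genes tested, for diet in each strain (high-fat diet minus chow, HFD) and for strain on each diet (129S1/SvImJ minus C57BL/6J); filled circles are called at an adjusted p under 0.05, red higher and blue lower. In C57BL/6J the diet calls are all to the right of 0, and on high-fat diet the strain calls are all to the left except Tk1.

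Summed over its members, each set gave a view per liver. The 18 mitosis genes summed to 16.1, 17.8 and 28.3 CPM (lowest, median, highest) in 129S1/SvImJ on high-fat diet, against 12.7, 14.3, 14.5, 15.5 and 16.6 CPM on chow. In C57BL/6J they summed to 20.7, 33.7 and 85.5 CPM on high-fat diet, against 19.9, 23.3 and 28.1 CPM on chow. Every 129S1/SvImJ liver on chow was thus below every C57BL/6J liver on chow. The 15 replication genes summed to 129.7 ± 11.6 CPM in 129S1/SvImJ on high-fat diet and 97.7 ± 10.1 CPM on chow (SD, n = 6 and 5). In C57BL/6J the sums were 121.1 ± 21.5 CPM on high-fat diet and 91.8 ± 5.57 CPM on chow (SD, n = 7 and 6), with 110.3 ± 2.32 CPM on high-fat diet without replicates 2 and 5 (n = 5). Tk1 made up much of the first difference: without it the sums were 73.6 ± 5.58 CPM on high-fat diet and 74.8 ± 3.15 CPM on chow in 129S1/SvImJ. In C57BL/6J they were then 97.8 ± 28.6 CPM on high-fat diet, or 82.8 ± 8.33 CPM in the 5 livers other than replicates 2 and 5, and 75.8 ± 3.71 CPM on chow.

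**Figure D4:**
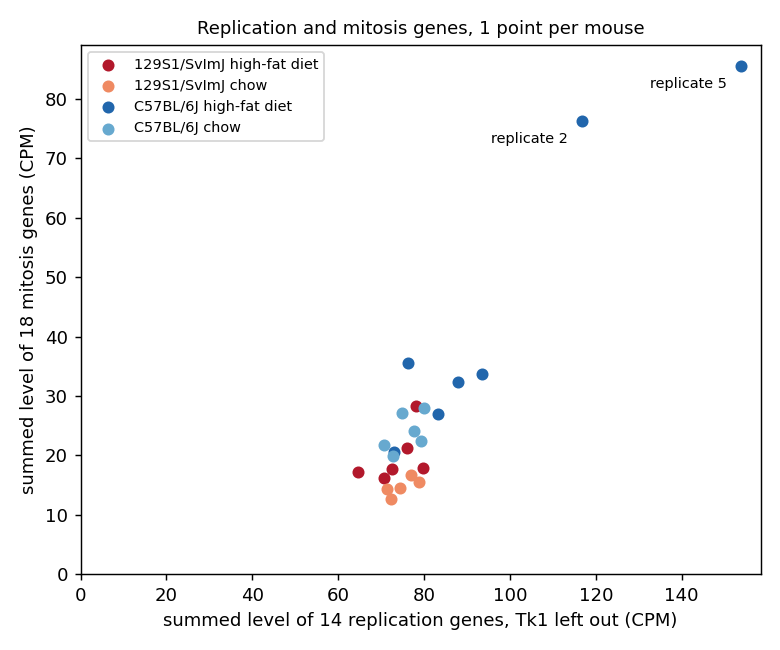
Summed CPM of the 18 mitosis genes against that of 14 replication genes, Tk1 left out, with 1 point per liver and colours for the 4 groups. C57BL/6J replicates 2 and 5 on high-fat diet lie apart at 76.3 and 85.5 CPM of mitosis genes, and the 129S1/SvImJ livers on chow lie at 12.7 to 16.6 CPM, with the lowest 129S1/SvImJ liver on high-fat diet at 16.1 CPM.

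Between the strains on high-fat diet, 17 of the 29 genes were lower in 129S1/SvImJ and 1 (Tk1) was higher, where 37% of all genes tested were called (17.9% higher, 19.1% lower). Of 11 mitosis genes 10 were lower (median log2 fold change, 129S1/SvImJ minus C57BL/6J, -1.46), and of all 18 with no count filter 12 were (median -1.41, where 17.9% of all genes were called). Of 14 replication genes 6 were lower and 1 higher (median -0.36). The median over all genes tested was 0.0045. Without C57BL/6J replicates 2 and 5, 4 of 11 mitosis and 4 of 14 replication genes (with Tk1 again the higher one) were called. The medians were -0.69 and -0.14. As 29.4% of all genes were called, the replication count was near the share over all genes. Of the 29 genes 10 were called in that fit. On chow, which does not involve those mice, 2 of the 29 were higher in 129S1/SvImJ (Rrm1 and Ccne2) and 5 lower (Mcm6, Rrm2, Ccnd1, Bub1b and Cenpa), where 25% of all genes were called (12.6% higher, 12.5% lower). The fit shares 1 estimate of spread over all groups, and with replicates 2 and 5 left out of it the chow count was 11, where 27.1% of all genes were called. All 11 tested mitosis genes had negative values on chow (median -0.84), while the tested replication genes had a median of 0.07. With no count filter, 17 of all 18 mitosis genes lay below 0 on chow (median -0.82), and Plk1 lay above it at 0.94. The median of all 15 replication genes was then 0.0020.

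Mcm6 had the largest strain difference of the 29 genes. The build named in the processing notes, mm10, is C57BL/6J sequence. Whether reads of 129S1/SvImJ were counted less fully for this or any other gene was not tested. It was at 0.467, 1.00 and 1.15 CPM (lowest, median, highest) in 129S1/SvImJ on high-fat diet, against 2.24, 4.91 and 14.5 CPM in C57BL/6J on that diet. On chow it was at 0.270, 0.495, 0.523, 0.656 and 1.01 CPM in 129S1/SvImJ, against 2.70, 4.41 and 4.91 CPM in C57BL/6J. The strains did not overlap on either diet, as for 15.1% of all genes tested on each. Of the 29 genes 3 did not overlap on high-fat diet (Mcm2, Mcm6 and Bub1b), which is below that share. On chow 6 did not (Mcm6, Rrm2, Ccnd1, Cdk1, Bub1b and Top2a). The log2 fold changes were -2.80 ± 0.35 on high-fat diet (adjusted p = 5.91e-07) and -2.76 ± 0.44 on chow (adjusted p = 3.60e-05), and -2.22 (adjusted p = 2.00e-07) on high-fat diet without the pair. The other 5 subunits of the ring ran on chow from -0.44 (Mcm2) to 0.59 (Mcm3), with no call. On high-fat diet Mcm2 (-1.17 ± 0.24, adjusted p = 0.000346), Mcm4 (-0.66 ± 0.19, adjusted p = 0.00797) and Mcm5 (-1.02 ± 0.32, adjusted p = 0.0147) were lower, of which Mcm2 kept its call without the pair (-0.69, adjusted p = 0.00191). Cdc45, outside the ring, was also lower on that diet (-0.94, adjusted p = 0.0115), but was not called without the pair (-0.59, adjusted p = 0.120).

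Bub1b and Ccnd1 were lower in 129S1/SvImJ on both diets. Bub1b was at 0.156, 0.289 and 0.620 CPM in 129S1/SvImJ on high-fat diet, against 0.984, 1.86 and 4.26 CPM in C57BL/6J, and at 0, 0.105, 0.124, 0.270 and 0.337 CPM in 129S1/SvImJ on chow, against 0.483, 0.726 and 1.27 CPM in C57BL/6J. The strains did not overlap on either diet (log2 fold changes -2.74 ± 0.39, adjusted p = 4.38e-06, on high-fat diet and -2.20 ± 0.59, adjusted p = 0.00665, on chow), and without the pair it was at -2.20 on high-fat diet (adjusted p = 2.09e-05). Ccnd1 was at 8.20, 10.3 and 32.5 CPM in 129S1/SvImJ on high-fat diet, against 19.0, 37.1 and 92.0 CPM in C57BL/6J (-1.79 ± 0.36, adjusted p = 0.000587, and -1.20, adjusted p = 0.00451, without the pair). Its groups overlapped on that diet through 129S1/SvImJ replicate 3 alone. On chow it was at 8.16, 8.77, 12.2, 13.1 and 13.9 CPM in 129S1/SvImJ, against 37, 48.9 and 57.5 CPM in C57BL/6J, without overlap (-2.11 ± 0.41, adjusted p = 0.000642).

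Of the nucleotide supply genes, Rrm2 was lower in 129S1/SvImJ on both diets (-0.90 ± 0.22, adjusted p = 0.00193, on high-fat diet, and -0.76 ± 0.24, adjusted p = 0.0205, on chow). Without the pair it was at -0.57 on high-fat diet (adjusted p = 0.0238). On chow its strains did not overlap, at 2.92, 3.54, 3.66, 4.05 and 4.20 CPM in 129S1/SvImJ, against 4.63, 5.67 and 9.47 CPM in C57BL/6J. Tk1 was higher in 129S1/SvImJ on high-fat diet (1.27 ± 0.30, adjusted p = 0.00208; 1.03, adjusted p = 0.0148, without the pair), with 12.4, 19.6 and 38.4 CPM in C57BL/6J beside the 129S1/SvImJ values above. On chow Tk1 was not called (0.52 ± 0.34, adjusted p = 0.303). Cenpa was lower in 129S1/SvImJ on both diets, at -0.67 ± 0.18 on high-fat diet (adjusted p = 0.00532; -0.51, adjusted p = 0.0410, without the pair) and -0.61 ± 0.20 on chow (adjusted p = 0.0266). The small calls of Rrm1 (0.37) and Ccne2 (0.72) on chow ended in 15 and 7 of the 24 fits that left out 1 library, and those of Rrm2 and Cenpa on chow in 2 and 3.

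The remaining mitosis genes were lower on high-fat diet and not called on chow. Mki67, at -1.50 ± 0.39 on high-fat diet (adjusted p = 0.00440), was -0.73 (adjusted p = 0.0537) without the pair, and -0.98 ± 0.51 on chow (adjusted p = 0.172). Prc1 was at -1.91 ± 0.42 (adjusted p = 0.000838) and -1.20 (adjusted p = 0.0143) without the pair. Top2a was at -1.63 ± 0.38 (adjusted p = 0.00157) and -0.94 (adjusted p = 0.0170) without it. Cdk1, Ccna2, Cenpe, Kif11 and Kif20a ran from -0.68 to -1.52 and lost their calls without the pair. On chow the strains did not overlap for Cdk1 (0.225, 0.314, 0.371, 0.394 and 0.405 CPM in 129S1/SvImJ, against 0.423, 0.703 and 0.993 CPM in C57BL/6J), although it was not called (-1.05 ± 0.58, adjusted p = 0.197). These levels rest on 2 to 3 counts per 129S1/SvImJ liver and 5 to 12 per C57BL/6J liver. Of all genes tested, 15.1% did not overlap on chow. Birc5 was the exception of the 11, at 0.54 ± 0.22 (adjusted p = 0.0593).

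**Figure D5:**
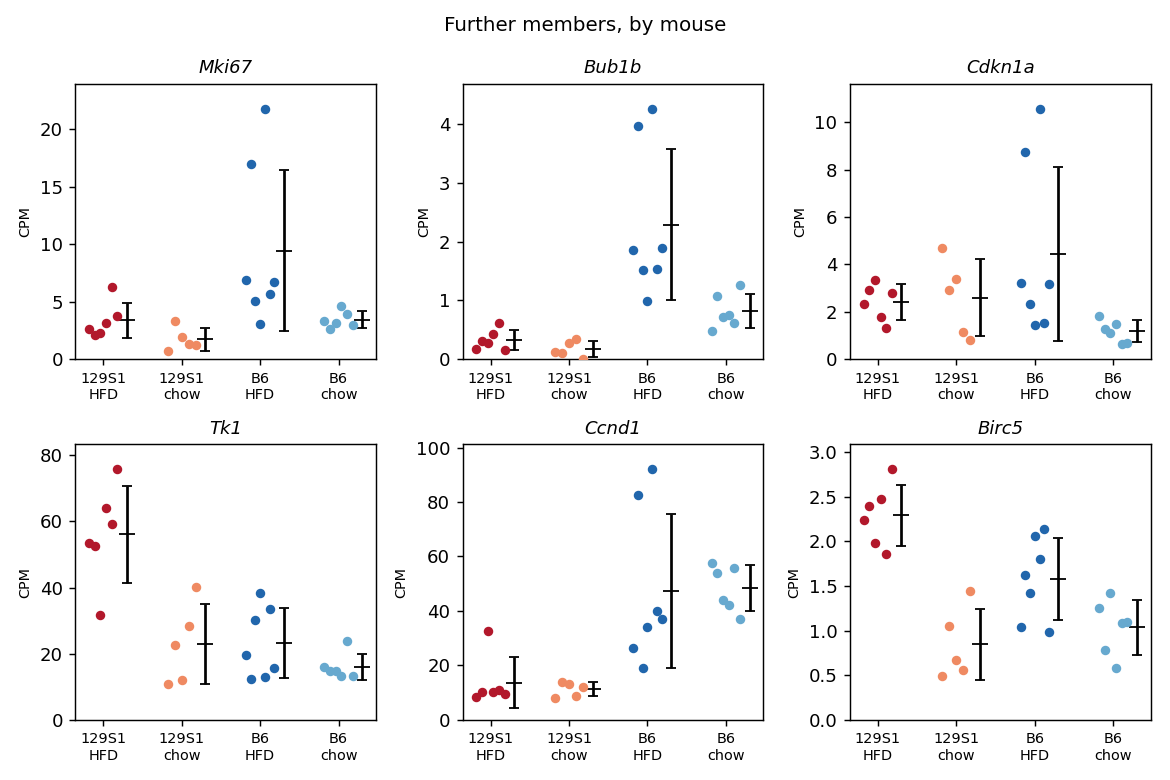
CPM of Mki67, Bub1b, Cdkn1a, Tk1, Ccnd1 and Birc5 in each liver by group (129S1, 129S1/SvImJ; B6, C57BL/6J; HFD, high-fat diet), with the mean and SD in black. Tk1 and Birc5 are highest in 129S1/SvImJ on high-fat diet, Bub1b is lower in all 129S1/SvImJ livers than in C57BL/6J on the same diet, and replicates 2 and 5 are the high pair of C57BL/6J on high-fat diet in Mki67, Bub1b, Cdkn1a and Ccnd1.

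Of the 40 further mitosis genes that passed the count filter, 23 were lower in 129S1/SvImJ and 0 higher on high-fat diet. On chow 7 were lower and 0 higher. Without the pair 12 of 36 were lower and 0 higher on high-fat diet, where 29.4% of all genes were called (15.2% lower). How many of these genes passed only through C57BL/6J livers on high-fat diet was not counted. Pttg1 (securin) was at 1.42 CPM in 129S1/SvImJ and 18.2 CPM in C57BL/6J on high-fat diet (-3.69 ± 0.20, adjusted p = 6.21e-14), and at 1.53 and 18 CPM on chow (-3.56 ± 0.22, adjusted p = 1.96e-12). Ccnf, cyclin F, was at -1.74 ± 0.20 on high-fat diet and -1.49 ± 0.22 on chow (adjusted p = 1.70e-07 and 1.08e-05). E2f1 was at 2.14 CPM in 129S1/SvImJ and 4.73 CPM in C57BL/6J on high-fat diet (-1.14 ± 0.18, adjusted p = 1.29e-05), and at 1.51 and 3.19 CPM on chow (-1.07 ± 0.21, adjusted p = 0.000470). Pttg1, Ccnf and E2f1 kept their calls on high-fat diet without the pair, at -3.78, -1.81 and -1.09 (adjusted p = 1.43e-13, 4.02e-07 and 9.28e-05). Further replication genes went both ways, with 5 higher and 9 lower of 41 on high-fat diet (6 and 3 of 40 without the pair) and 3 higher and 2 lower on chow. These are 34.1% and 12.2% of the list, below the 37% and 25% over all genes tested, and the further mitosis genes were called at 57.5% on high-fat diet and 17.5% on chow. The primase subunits Prim1 and Prim2 were higher in 129S1/SvImJ on chow, at 0.91 ± 0.23 and 0.73 ± 0.14 (adjusted p = 0.00445 and 0.000185).

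Markers of other cell types were also compared between the strains. Of all genes tested, 37% were called on high-fat diet, 25% on chow, and 29.4% on high-fat diet without the pair. On high-fat diet 7 of 10 Kupffer cell markers and 5 of 6 lymphocyte markers were lower in 129S1/SvImJ (4 of 10 and 2 of 5 without the pair), and on chow 10 of 10 and 5 of 6. Kupffer cell markers summed to 131 to 303 CPM in 129S1/SvImJ on high-fat diet, against 243 to 611 CPM in C57BL/6J, and to 85.3 to 227 CPM on chow, against 260 to 431 CPM. Lymphocyte markers summed to 11.1 to 41.8 CPM in 129S1/SvImJ on high-fat diet, against 26.9 to 69.3 CPM in C57BL/6J, and to 14.2 to 20.0 CPM on chow, against 27.7 to 35.9 CPM. On high-fat diet 3 of 6 recruited myeloid, 3 of 7 cholangiocyte and all 5 fat cell markers were lower in 129S1/SvImJ, and 0 were higher. Of 8 stellate cell and fibroblast markers 3 were lower and 1 higher, and of 8 endothelial markers 4 lower and 2 higher. On chow these lists had 3, 1, 1, 2 and 4 lower markers, and 2 endothelial markers were higher. Of 8 hepatocyte markers 3 were higher in 129S1/SvImJ on high-fat diet and 1 on chow. On high-fat diet the shares called of hepatocyte (37.5%) and cholangiocyte markers (42.9%) were near that over all genes. On chow those of hepatocyte (12.5%), cholangiocyte (14.3%), fat cell (20%) and stellate cell markers (25%) did not exceed it. Without the pair, 2 of 5 recruited myeloid, 3 of 7 cholangiocyte, 4 of 4 fat cell, 3 of 8 stellate cell and 3 of 8 endothelial markers were lower on high-fat diet. The part of these cell types in the strain differences of the mitosis genes was not tested.

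Of the 8 genes below the count filter, 2 were called when no filter was used, which left 30864 genes, 17.9% of them called for strain on high-fat diet and 5.49% for diet in C57BL/6J. Nusap1, a microtubule-binding protein of the spindle, was at 0, 0.0840 and 0.539 CPM in 129S1/SvImJ on high-fat diet, against 0.536, 0.967 and 2.38 CPM in C57BL/6J (-2.45 ± 0.48, adjusted p = 0.000110), and at -1.92 without the pair (adjusted p = 0.00463). For diet in C57BL/6J it was at 1.59 ± 0.43 (adjusted p = 0.0160), and at 1.05 without the pair (adjusted p = 0.265). Ccnb1, cyclin B1, was lower in 129S1/SvImJ on high-fat diet (-2.17 ± 0.74, adjusted p = 0.0384), but not without the pair (-0.47, adjusted p = 0.762). Ccnb1, Ccnb2, Aurka and Bub1 were each highest in replicate 2 of C57BL/6J on high-fat diet, as the heat map shows.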

How the data were processed

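RNA was measured in 24 mouse livers, 1 library each. Per the labels' protocols, DNase-treated total RNA was depleted of ribosomal RNA and made into libraries that keep the strand. Among the tools in the submitters' processing notes are STAR 2.5.4b, Bowtie2 2.2.3, Trimmomatic 0.36 and DESeq2 1.26.0, with mm10 as the build; their roles, the annotation release and the strand setting of counting are not stated there. The authors deposited raw counts per gene, in a matrix and in a file per library, with equal values. The variance-stabilized matrix was not used here.

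GENCODE M21 matched 53582 of the 53677 identifiers, version suffix dropped, and unmatched ones held 0.00747% of the counts. In edgeR 4.0.16 (R 4.3.3), filterByExpr left 14533 genes, TMM scaled the libraries, and a robust quasi-likelihood fit gave each group its own mean over all 24 samples. Each p-value is two-sided and measures the spread between mice, all taken as independent. The mouse identifiers hold a number that several mice of a group share and that no other group has. What it stands for was not settled, and the fit did not model it. If mice that share it are not independent, the p-values may be too small. Calls needed an adjusted p under 0.05. SE is the log2 fold change divided by the root of the F statistic. Libraries of the same group all differed beyond sampling noise (61 pairs, with chi-square over degrees of freedom from 5.76 to 82.7). The procedure was tested on simulated data. Alternatives covered scaling, filter, DESeq2 1.42.0, the samples fitted, the level of 7SK RNA (Rn7sk), and left-out libraries.

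The 37 genes and all gene lists were chosen with earlier results of these data known. Every one of the 37 is named. From each of the other lists up to 4 called genes with the smallest p were eligible to be named in a comparison. Genes overlapping another gene of the matrix on the opposite strand (Ccna2, Ccnd1, Ccne2, Cdc45, Kif20a, Mcm7, Mki67, Nusap1, Plk1, Prc1, Tk1 and Top2a) or the same strand (Cdt1, Mcm7, Nusap1, Rrm1 and Top2a), or with named pseudogenes (Ccnb1, Ccnb2, Pcna and Tyms) are uncertain to the extent that reads were shared.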

Additional observations from a re-analysis of the deposited data

Results flagged for a closer look

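Within 116 groups (29 genes in each of 4 groups of mice), 6 single livers lay farther from the rest of their group on the log2(CPM + 0.5) scale than Dixon's gap test allows at 95%, and chance gives such a gap in about 1 in 20 groups. Ccnd1, cyclin D1, was at 32.5 CPM in replicate 3 of 129S1/SvImJ on high-fat diet, against 8.20 to 10.9 CPM in the other 5, and this liver alone brought the strains into overlap on that diet. Ccna2, cyclin A2, was at 1.68 CPM in replicate 5 of the same group, against 0.312 to 0.662 CPM. The helicase subunit Mcm4 was at 4.22 CPM in its replicate 1, against 5.25 to 5.67 CPM. Ccne1, cyclin E1, was at 0.540 CPM in replicate 3 of 129S1/SvImJ on chow, against 1.46 to 1.84 CPM. Ccne2, cyclin E2, was at 1.49 CPM in replicate 1 of C57BL/6J on high-fat diet, against 2.23 to 2.85 CPM. Tk1 was at 23.8 CPM in replicate 5 of C57BL/6J on chow, against 13.1 to 15.8 CPM. C57BL/6J high-fat replicates 2 and 5 are not among these, since a gap test for 1 value does not pick out a pair.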

How the results depend on the processing

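Under DESeq2 size factors, upper-quartile scaling and no count filter, the counts of the 37 genes called stayed within 1.5 times in every comparison. The count of genes called for the interaction moved most: 43 as reported, 293 with DESeq2, 121 with the 7SK level as a covariate, 17 with the replicate block, 2 without the libraries with fat cell transcripts and 24 without C57BL/6J high-fat replicates 2 and 5. With only the compared groups in the fit, 8 of the genes described were called for diet in C57BL/6J, 2 of them replication genes. Without the libraries with fat cell transcripts, 3 replication genes were called for diet in C57BL/6J, and 129S1/SvImJ diet calls were 3, 1 of them a replication gene.

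Without C57BL/6J high-fat replicates 2 and 5 (chosen after seeing the data), 1333 genes were called for diet in C57BL/6J, of them 3 described here, 1 replication and 2 mitosis. For strain on chow it was 11 described genes with 4 mitosis genes, and on high-fat diet 10, with 4 replication and 4 mitosis genes.

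7SK RNA differed between libraries. Within the 22 libraries of its low level (the high level, 129S1/SvImJ chow replicates 3 and 4, could not be fitted), 1 described gene and 0 replication genes had diet calls in 129S1/SvImJ, 3 genes with 1 replication and 1 mitosis gene for strain on chow, and 196 genes of all for the interaction. Splits with at least 2 libraries of each group on each side, added after seeing the data, leave fewer samples. In the low part, genes called were 312 for diet in C57BL/6J, 305 for diet in 129S1/SvImJ, 2008 for strain on chow, 1549 on high-fat diet and 1 for the interaction. Of the genes described 0, 0, 3 and 3 were called in the first 4 comparisons, replication genes 0, 0, 1 and 2, and mitosis genes 0, 0, 1 and 1. In the high part, 784 genes were called for diet in C57BL/6J (0 described here), 283 for diet in 129S1/SvImJ (1 described, 0 replication), 1338 for strain on chow (1 described, 1 replication, 0 mitosis) and 0 for the interaction, and 6 mitosis genes for strain on high-fat diet. All described genes called over the 24 libraries and fitted in these parts kept their sign. This is no independent support, since the libraries of each part were among the 24 that gave the calls.

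Leaving out 1 library gave 9 to 15 described genes for diet in C57BL/6J (replication 3 to 6, mitosis 5 to 8), 1 to 5 for diet in 129S1/SvImJ (0 to 3, and 1 to 1), 4 to 8 for strain on chow (1 to 4, and 1 to 2), 17 to 20 on high-fat diet (6 to 7, and 10 to 12) and 0 to 0 for the interaction. The lowest counts came without C57BL/6J high-fat replicate 5 for diet in C57BL/6J, and without 129S1/SvImJ chow replicate 1 for diet in 129S1/SvImJ. Over all genes the ranges were 1627 to 2502, 937 to 1671, 3153 to 3814, 4831 to 5554 and, for the interaction, 5 to 170.

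Differences in summed level (log2) of replication genes were 0.38 for diet in C57BL/6J (0.30 to 0.41 with 1 library left out), 0.41 in 129S1/SvImJ (0.36 to 0.46), 0.09 for strain on chow (0.036 to 0.13) and 0.11 on high-fat diet (0.085 to 0.19). As a mean of log2(CPM + 0.5) the last 3 were 0.13, -0.14 and -0.37. Without Tk1 the difference was -0.025 for diet in 129S1/SvImJ and -0.37 for strain on high-fat diet, since Tk1 alone was left out. For mitosis genes they were 0.72 (0.53 to 0.87), 0.40 (0.29 to 0.45), -0.70 (-0.75 to -0.64) and -1.02 (-1.17 to -0.83), with -0.39 for strain on chow as a mean of logs. Without C57BL/6J high-fat replicates 2 and 5 they were 0.30 for diet in C57BL/6J and -0.60 for strain on high-fat diet. The cause of the other changes was not tested.

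Deviations from the group mean correlated weakly between same-numbered mice of different groups (33 pairs, r of -0.21 to 0.28, median 0.06, 12 over 0.1). Differently numbered mice were not compared, so whether the numbers pair the mice was not settled. With the replicate block 13, 4, 7 and 19 described genes were called for diet in C57BL/6J, diet in 129S1/SvImJ, strain on chow and strain on high-fat diet. Depth limits the 8 genes below the count filter.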
